A study of Rattus norvegicus with 16 samples.

Results

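The 10 genes described here are the transcription factors that drive and brake the circadian clock beside the Period and Cryptochrome proteins: the activators Arntl, Clock and Npas2, the REV-ERB repressors Nr1d1 and Nr1d2, the D-box factors Dbp, Tef and Nfil3, and the E-box repressors Bhlhe40 and Bhlhe41. They were taken by gene name, from a list drawn up with earlier results of these data known. All 10 were found on the arrays, each with 1 probe set, among the 14497 genes and 15209 probe sets that were tested. The probe table lists Arntl under its current name, Bmal1.

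As background, ARNTL pairs with CLOCK or NPAS2 and the pair activates genes that carry an E-box. Among these genes are the Period and Cryptochrome genes, whose proteins inhibit the pair, Nr1d1 and Nr1d2, whose proteins repress Arntl through ROR elements, and Dbp and Tef, whose proteins activate genes with a D-box. NFIL3 represses at the same D-box, and BHLHE40 and BHLHE41 repress at the E-box. Several clock genes, Per1 and Bhlhe40 among them, are also induced in neurons within minutes to hours of stimulation, so that in cortex they follow both the daily rhythm and neuronal activity.

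Messenger RNA was measured in the gustatory cortex (GC), where the insular cortex receives taste, in 16 male Wistar Hola rats. Each rat had its own array (Affymetrix RaGene 1.1 ST v1), and there were 4 rats per group. The groups were saccharin 3 h, saccharin 1 h, water 3 h and water 1 h, which are the fluid drunk and the time from drinking to death. The sources give no genetic change for any rat. All were labelled as 2 months old (the methods of the study give another age), and had been on restricted water for 3 days, so that none of the groups was undisturbed. Saccharin at 0.1% was the unfamiliar taste and water the familiar one, and the comparisons ask how the transcripts of these genes differed with time after drinking and with the taste. The sources used here place the experiments in the light phase of the day and give no hour of death, so time after drinking and time of day cannot be told apart. Arrays numbered C365 to C372 held the 3 h rats and C373 to C380 the 1 h rats, and an effect of that numbering would likewise be inseparable from time.

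The promoters of the genes that fell with time are shown first, because the clock factors themselves act on such sites. Each window runs from 250 bases before to 50 bases after the start site that RefSeq annotates in GRCr8, and the motif found in it is in capitals. The letters searched on both strands were CACGTG (E-box), TTATGTAA and TTACGTAA (D-box), TAGGTCA and TGGGTCA (ROR element), TGACGTCA (cyclic AMP response element, CRE) and TGACG (the core of a CRE, which the full CRE also holds). The 4 windows are Bhlhe40 at chr4:143174200-143174499 on the plus strand, Nr1d1 from its second annotated start at chr10:84229405-84229704 on the minus strand, Nfil3 at chr17:12432126-12432425 on the plus strand and Bhlhe41 at chr4:180569306-180569605 on the minus strand.
Bhlhe40, E-box in capitals: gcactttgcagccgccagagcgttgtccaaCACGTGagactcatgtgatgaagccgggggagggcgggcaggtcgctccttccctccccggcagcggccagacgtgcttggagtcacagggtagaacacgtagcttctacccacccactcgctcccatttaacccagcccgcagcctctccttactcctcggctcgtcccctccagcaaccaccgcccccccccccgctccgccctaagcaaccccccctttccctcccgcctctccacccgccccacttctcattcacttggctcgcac
Nr1d1, second start, E-box in capitals: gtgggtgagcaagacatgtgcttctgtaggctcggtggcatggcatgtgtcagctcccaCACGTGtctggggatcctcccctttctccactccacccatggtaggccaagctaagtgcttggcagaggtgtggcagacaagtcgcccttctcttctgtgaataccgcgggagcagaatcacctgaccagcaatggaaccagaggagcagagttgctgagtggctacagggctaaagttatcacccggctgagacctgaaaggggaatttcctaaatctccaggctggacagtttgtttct
Nfil3, TGACG in capitals: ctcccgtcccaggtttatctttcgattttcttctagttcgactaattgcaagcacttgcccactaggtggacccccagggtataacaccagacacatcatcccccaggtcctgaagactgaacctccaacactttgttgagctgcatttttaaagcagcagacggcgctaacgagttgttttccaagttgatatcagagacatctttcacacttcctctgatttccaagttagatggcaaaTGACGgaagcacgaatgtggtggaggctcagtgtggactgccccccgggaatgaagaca
Bhlhe41, E-box in capitals: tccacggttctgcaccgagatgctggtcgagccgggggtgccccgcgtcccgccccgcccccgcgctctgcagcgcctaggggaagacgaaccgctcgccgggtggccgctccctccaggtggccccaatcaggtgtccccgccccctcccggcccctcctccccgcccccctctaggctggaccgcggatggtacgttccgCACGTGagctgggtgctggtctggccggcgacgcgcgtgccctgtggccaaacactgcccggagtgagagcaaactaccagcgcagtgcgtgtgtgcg

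The E-box of Bhlhe40 began 220 bases before the start site, that of Nr1d1 191 bases before its second start and that of Bhlhe41 48 bases before the start. The window of the first Nr1d1 start held none of the motifs. Tef, whose change with time did not pass the test, also held an E-box, 198 bases before its start, which made 4 of the 12 windows. Among all 33469 annotated windows, 6.42% held an E-box. The window of Nfil3 held TGACG 9 bases before the start, and that of Nr1d2 held it on the minus strand 39 bases after the start, a run of letters found in 21.2% of all windows. Arntl held the only ROR element, 16 bases before its start, against 6.6% of all windows. None of the 12 windows of these genes held a D-box (1.01% of all windows) or a full CRE (1.83%), which says only that these letters are not in these windows. The windows come from another assembly than the one the array design was matched to in the study, and no binding was measured.

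**Figure D1:**
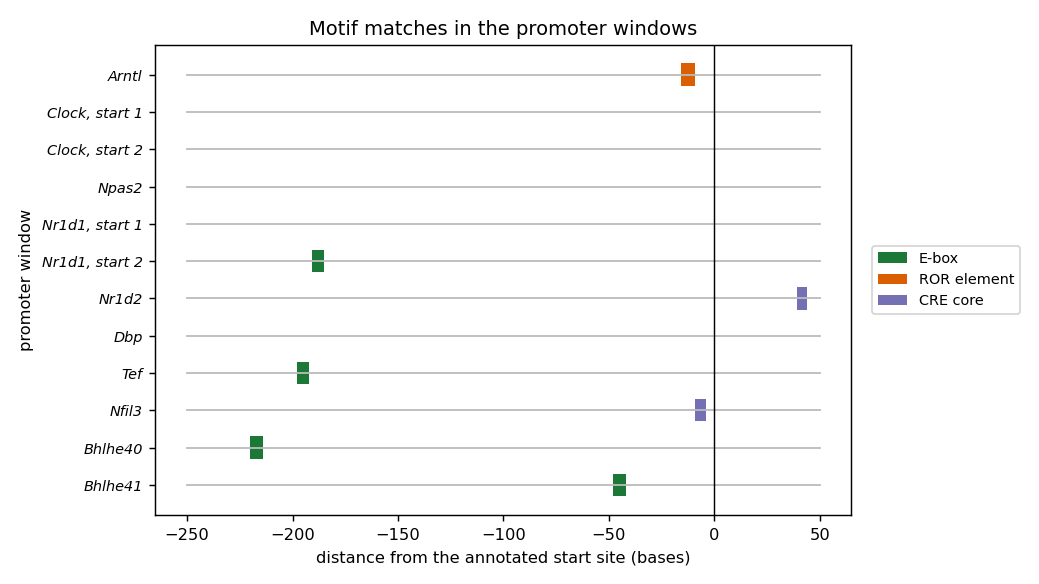
Motif matches (coloured boxes, by motif) in the 12 promoter windows of the 10 genes, plotted as distance in bases from the annotated start site (vertical line at 0). An E-box lies in the windows of Nr1d1 (second start), Tef, Bhlhe40 and Bhlhe41, the core of a CRE lies in those of Nr1d2 and Nfil3, and the ROR element lies in Arntl.

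The median log2 value of an array, as deposited, was 5.08 to 5.16, any pair of arrays correlated at 0.994 to 0.997, and 0 of 120 pairs were identical. All comparisons come from 1 limma fit of the 4 group means over the 15209 probe sets, and a gene was called at a Benjamini-Hochberg adjusted p under 0.05 over all of them. Markers of excitatory cortical neurons (3 measured, such as Slc17a7) had mean log2 levels of 10.31 to 10.51 over the 16 arrays. No marker listed here separates the GC from other cortex.

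Averaged over both tastes, 4 of the 10 genes were lower at 3 h than at 1 h: Bhlhe40, Nr1d1, Nfil3 and Bhlhe41. These are repressors, at the E-box, the ROR element and the D-box. Over all probe sets 0.723% were called lower in this comparison (110 of 15209) and 0.283% higher, where 0 of the 10 genes were called. At an unadjusted p under 0.05, 5 of the 10 were lower, against 6.25% of all probe sets, and 1 was higher (Npas2), against 5.77%. The median log2 change of the 10 genes was -0.13, beside 0.000012 over all probe sets. It was -0.10 after saccharin and -0.16 after water, beside -0.0023 and 0.0023 over all probe sets. In this bulk tissue fewer cells of a type and less RNA per cell cannot be told apart.

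**Figure D2:**
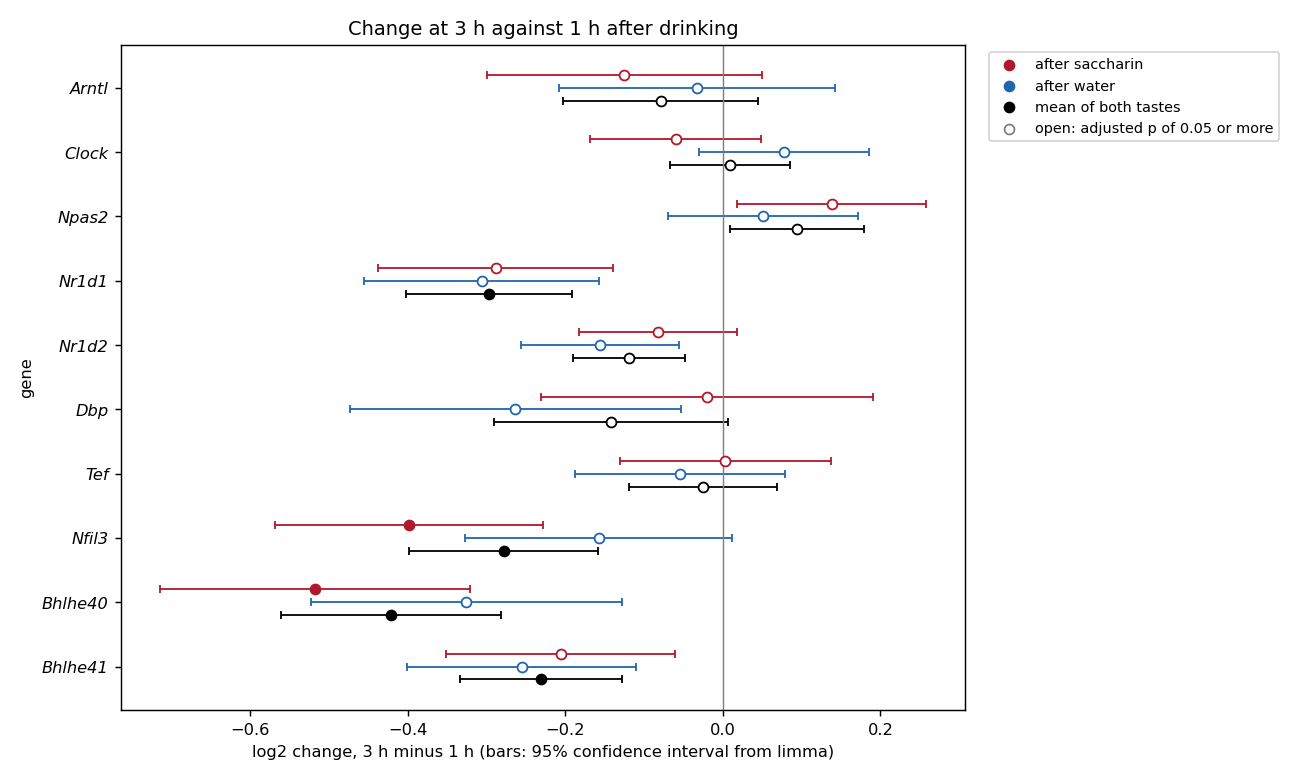
Log2 change of each gene between the times, 3 h minus 1 h (horizontal axis, with the 95% confidence interval from limma), after saccharin (red), after water (blue) and averaged over tastes (black). Filled points passed the adjusted test, which are Nr1d1, Nfil3, Bhlhe40 and Bhlhe41 in the average and Nfil3 and Bhlhe40 after saccharin.

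Bhlhe40, also called DEC1, represses transcription at E-boxes and is induced by many stimuli. Its log2 level was 8.89, 8.90, 9.03 and 9.24 in the saccharin 3 h rats, against 9.66, 9.51, 9.39 and 9.58 in the saccharin 1 h rats. After water it was 9.29, 8.91, 9.25 and 9.07 at 3 h, against 9.29, 9.60, 9.45 and 9.50 at 1 h. The saccharin rats of the 2 times did not overlap, whereas after water the highest 3 h rat (9.2923) lay just above the lowest 1 h rat (9.2886). Averaged over tastes Bhlhe40 fell by 0.42 on the log2 scale (standard error 0.066, limma adjusted p = 0.00242), which is 0.747 times the level at 1 h and the largest change among the 10 genes. It fell by 0.52 after saccharin (standard error 0.094, adjusted p = 0.0122). After water the change was -0.33 (standard error 0.094, adjusted p = 0.340) and did not pass. The call after saccharin was lost without saccharin 3 h array C366 or C368 or saccharin 1 h array C375 or C380 (adjusted p up to 0.0652). The call averaged over tastes was kept in every setting tried (adjusted p 7.6e-04 to 0.00984).

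Bhlhe41, also called DEC2, is the paralogue of Bhlhe40 and binds the same site. It stood at 7.19, 7.14, 7.20 and 7.36 in the saccharin 3 h rats and at 7.62, 7.34, 7.38 and 7.37 in the saccharin 1 h rats. After water it stood at 7.22, 7.14, 7.25 and 7.19 at 3 h, against 7.38, 7.62, 7.47 and 7.36 at 1 h. Here it was the water rats of the 2 times that did not overlap. Averaged over tastes Bhlhe41 fell by 0.23 on the log2 scale (standard error 0.049, limma adjusted p = 0.0265), to 0.852 times the level at 1 h. The changes within each taste, -0.21 after saccharin (adjusted p = 0.367) and -0.26 after water (adjusted p = 0.280), did not pass. The averaged call stood close to the threshold: without any 1 of arrays C366, C368 and C370 (saccharin 3 h), C367 (water 3 h) and C374 and C376 (water 1 h) the adjusted p was 0.0519 to 0.0583, and tested among every probe set of the table it was 0.0601.

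**Figure D3:**
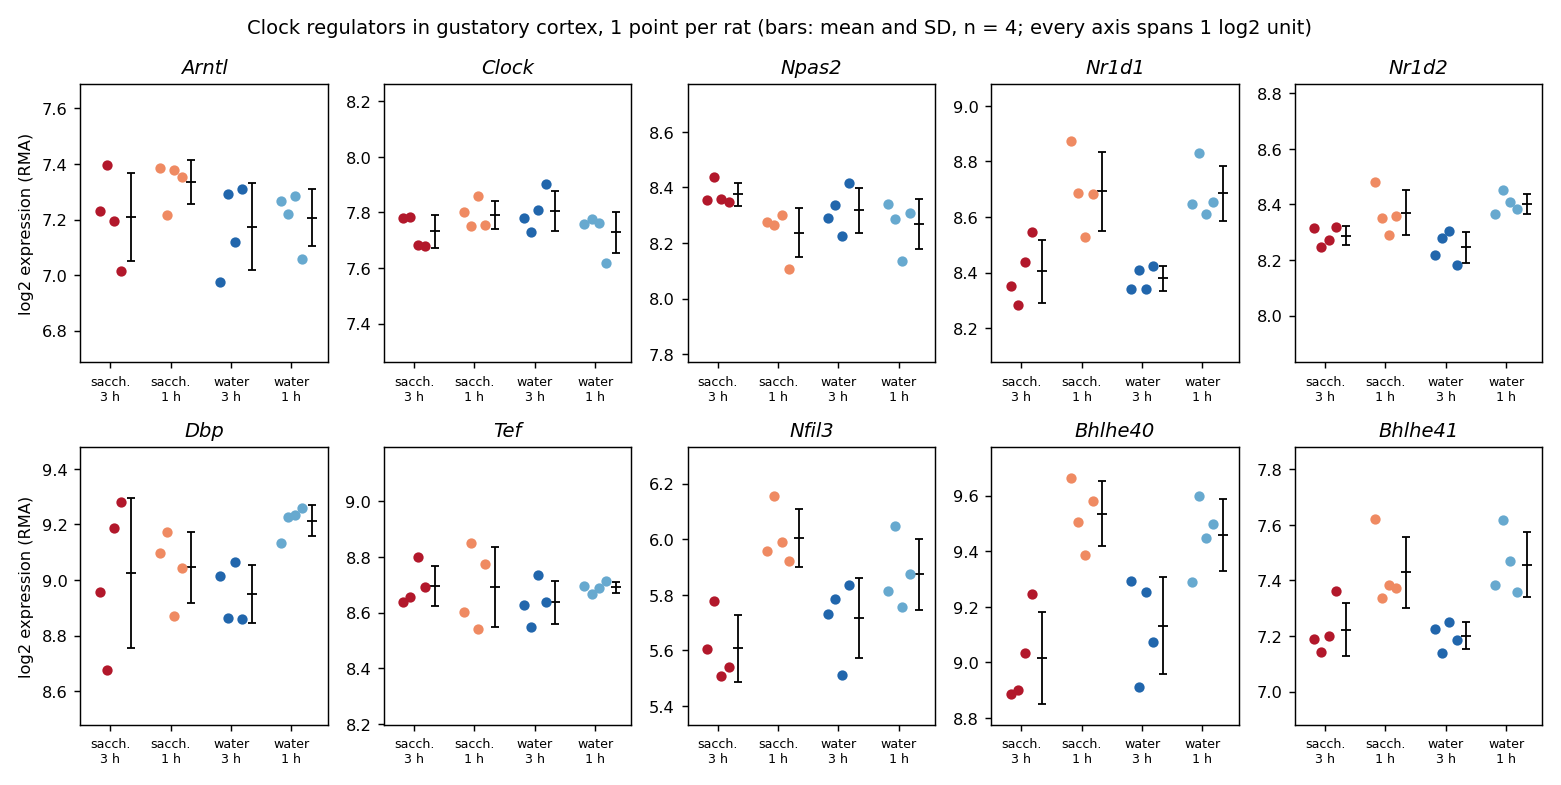
Log2 level (RMA, vertical axes, each spanning 1 log2 unit) of the 10 genes, with 1 point per rat. Bars beside the points give each group's mean and SD (n = 4). In Bhlhe40, Nr1d1, Nfil3 and Bhlhe41 the 3 h rats lie mostly below the 1 h rats of the same taste, and in Dbp the saccharin 3 h rats spread from 8.68 to 9.28.

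Of the REV-ERB receptors, which bind heme and repress Arntl, Nr1d1 (REV-ERB alpha) fell and Nr1d2 (REV-ERB beta) had a smaller change that did not pass. Nr1d1 stood at 8.35, 8.28, 8.44 and 8.55 in the saccharin 3 h rats, against 8.87, 8.69, 8.53 and 8.68 in the saccharin 1 h rats. After water the 3 h rats had 8.34, 8.41, 8.34 and 8.42, against 8.65, 8.83, 8.61 and 8.65 in the 1 h rats. The water rats did not overlap, and of the saccharin rats 1 at 3 h (8.55) reached above the lowest at 1 h (8.53). Averaged over tastes Nr1d1 fell by 0.30 (standard error 0.050, limma adjusted p = 0.00495), to 0.814 times the level at 1 h. The change was nearly the same size in each taste, -0.29 after saccharin (adjusted p = 0.114) and -0.31 after water (adjusted p = 0.148), and neither passed by itself. With a trend and robust prior the change after saccharin passed (adjusted p = 0.0440). The averaged call was kept in every setting with an adjusted p (7.0e-04 to 0.0152).

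RefSeq places Nr1d1 and the thyroid hormone receptor gene Thra on opposite strands with overlapping 3′ ends. Thra changed by -0.02 averaged over tastes (adjusted p = 0.910), and whether its transcripts took part in the signal of Nr1d1 was not tested. Nr1d2 averaged 8.29 ± 0.034 in the saccharin 3 h rats and 8.37 ± 0.081 in the saccharin 1 h rats (SD, n = 4 each). After water it averaged 8.25 ± 0.056 at 3 h and 8.40 ± 0.037 at 1 h (SD, n = 4 each). Its averaged change was -0.12 (standard error 0.034, limma adjusted p = 0.116). The water rats of the 2 times did not overlap in Nr1d2 either, although the change after water, -0.16, did not pass the adjusted test (adjusted p = 0.373).

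Among the D-box factors the repressor Nfil3 (E4BP4) fell, and the activators Dbp and Tef were not called. Nfil3 stood at 5.61, 5.78, 5.51 and 5.54 in the saccharin 3 h rats, against 5.96, 6.16, 5.99 and 5.92 in the saccharin 1 h rats. After water the 3 h rats had 5.73, 5.78, 5.51 and 5.84, against 5.81, 6.05, 5.76 and 5.87 in the 1 h rats. The saccharin rats of the 2 times did not overlap (highest at 3 h 5.78, lowest at 1 h 5.92), and the water rats overlapped. Nfil3 fell by 0.40 after saccharin (standard error 0.081, limma adjusted p = 0.0359), to 0.759 times the level at 1 h, and by 0.28 averaged over tastes (standard error 0.057, adjusted p = 0.0213). After water the change was -0.16 (standard error 0.081, adjusted p = 0.715). The difference between the tastes, -0.24 (standard error 0.11), had an unadjusted p of 0.0495 in limma and an adjusted p of 1, so a difference between tastes was not shown.

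The call of Nfil3 after saccharin was lost without any 1 of 8 arrays, which were saccharin 3 h C366, C370 and C372, saccharin 1 h C375, C377, C379 and C380, and water 1 h C378 (adjusted p 0.0508 to 0.146). Averaged over tastes it was lost without saccharin 3 h array C372 (adjusted p = 0.0524). Tested among every probe set of the table it was lost in both comparisons, with adjusted p = 0.102 after saccharin and 0.0526 averaged over tastes.

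Dbp, a classic output gene of the clock, had the largest SD within groups of the 10 genes in the fit, 0.16 on the log2 scale. It stood at 8.95, 8.68, 9.19 and 9.28 in the saccharin 3 h rats and at 9.10, 9.17, 8.87 and 9.04 in the saccharin 1 h rats. After water it stood at 9.01, 8.86, 9.06 and 8.86 at 3 h, against 9.13, 9.23, 9.23 and 9.26 at 1 h. The water rats of the 2 times did not overlap and the saccharin rats lay across each other. The change was -0.02 after saccharin (95% confidence interval -0.23 to 0.19) and -0.26 after water (-0.47 to -0.053, limma adjusted p = 0.557), and the difference between these was 0.24 (unadjusted p = 0.103, adjusted p = 1). Tef, which belongs to the same PAR bZIP family as Dbp, changed by -0.03 averaged over tastes (95% confidence interval -0.12 to 0.069).

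The activators at the head of the loop did not pass in any comparison. Npas2, the partner of ARNTL that is abundant in forebrain, stood at 8.36, 8.44, 8.36 and 8.35 in the saccharin 3 h rats, against 8.27, 8.27, 8.30 and 8.11 in the saccharin 1 h rats. All 4 of the 3 h rats thus lay above the 1 h rats, as in 2.09% of all probe sets. After water the groups overlapped, and the averaged change of 0.09 (95% confidence interval 0.0090 to 0.18) had an unadjusted p of 0.0321 in limma and an adjusted p of 0.348. Arntl changed by -0.08 averaged over tastes (95% confidence interval -0.20 to 0.044, adjusted p = 0.658). Clock changed by 0.01 (95% confidence interval -0.067 to 0.085, adjusted p = 0.959). For Clock averaged over tastes a change of more than 0.085 in either direction thus lay outside the interval. Within tastes the intervals were wider, at -0.06 after saccharin (95% confidence interval -0.17 to 0.048) and 0.08 after water (-0.030 to 0.19).

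Counted within tastes, 2 of the 10 genes were called lower at 3 h after saccharin (Nfil3 and Bhlhe40), against 0.276% of all probe sets (42 of 15209), and 0 after water, against 0.0986% (15 of 15209). At an unadjusted p under 0.05 the counts were 4 lower after saccharin, against 4.56% of all probe sets, and 5 lower after water, against 3.67%. Rats of the 2 times that did not overlap, with 3 h lower, were seen in 2 genes after saccharin (Nfil3 and Bhlhe40), against 2.69% of probe sets, and in 4 after water (Nr1d1, Nr1d2, Dbp and Bhlhe41), against 1.93%. Where 4 rats do not overlap 4 others, an exact two-sided permutation test always gives p = 0.0286, the smallest possible. That p therefore adds nothing to these counts.

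In order of level the groups of Bhlhe40 and Nfil3 ran, from low to high, saccharin 3 h, water 3 h, water 1 h and saccharin 1 h. For Bhlhe40 the means were 9.02 ± 0.17, 9.13 ± 0.17, 9.46 ± 0.13 and 9.53 ± 0.12 in that order (SD, n = 4 each). For Nfil3 they were 5.61 ± 0.12, 5.72 ± 0.14, 5.87 ± 0.13 and 6.01 ± 0.10. Neighbours in this order did not differ by the adjusted test in either gene. For Nr1d1 and Bhlhe41 the tastes lay nearly level within a time: Nr1d1 averaged 8.40 ± 0.11 after saccharin and 8.38 ± 0.044 after water at 3 h, and 8.69 ± 0.14 after saccharin and 8.69 ± 0.099 after water at 1 h (SD, n = 4 each).

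No difference between the tastes passed the test in any of the 10 genes. Between saccharin and water limma called 0 of them at 3 h and 0 at 1 h, and 0 of 15209 probe sets (0%) at either time. At an unadjusted p under 0.05 none of the 10 passed, against 3.37% of all probe sets at 3 h and 3.06% at 1 h, and none had rats that did not overlap, against 1.91% and 1.5%. The largest difference at 3 h was -0.12 in Bhlhe40 (95% confidence interval -0.31 to 0.081). At 1 h it was -0.17 in Dbp (-0.38 to 0.042), with Nfil3 at 0.13 (-0.037 to 0.30) and Arntl at 0.13 (-0.048 to 0.30). For Nr1d1 the interval was -0.12 to 0.17 at 3 h and -0.14 to 0.16 at 1 h. In the test of whether the change with time differed by taste, 0 of the 10 and 0 of all probe sets (0%) passed, and Nfil3 alone had an unadjusted p under 0.05, against 2.96% of all probe sets.

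Other genes of the clock were set beside these from a list chosen by role, of which the table names 16 of 24. Only Per1, an inhibitor of the activators, was called. It averaged 6.28 ± 0.14 in the saccharin 3 h rats and 7.11 ± 0.099 in the saccharin 1 h rats, and after water 6.41 ± 0.24 in the 3 h rats and 7.01 ± 0.19 in the 1 h rats (SD, n = 4 each). Per1 fell by 0.71 averaged over tastes (standard error 0.077, limma adjusted p = 4.6e-05), by 0.83 after saccharin (adjusted p = 8.6e-04) and by 0.60 after water (adjusted p = 0.0311). The other Period genes had changes of the same sign that did not pass, Per2 at -0.19 (adjusted p = 0.386) and Per3 at -0.13 (adjusted p = 0.344). The next smallest p was that of Wee1, a cell cycle kinase and clock output, at 0.08 (adjusted p = 0.588). The Cryptochromes changed by 0.01 (Cry1) and -0.01 (Cry2). The median change of the 16 genes averaged over tastes was 0.0023. In the plot of all 26 clock genes by their change, Per1 stood lowest and the 4 repressors named above came next.

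**Figure D4:**
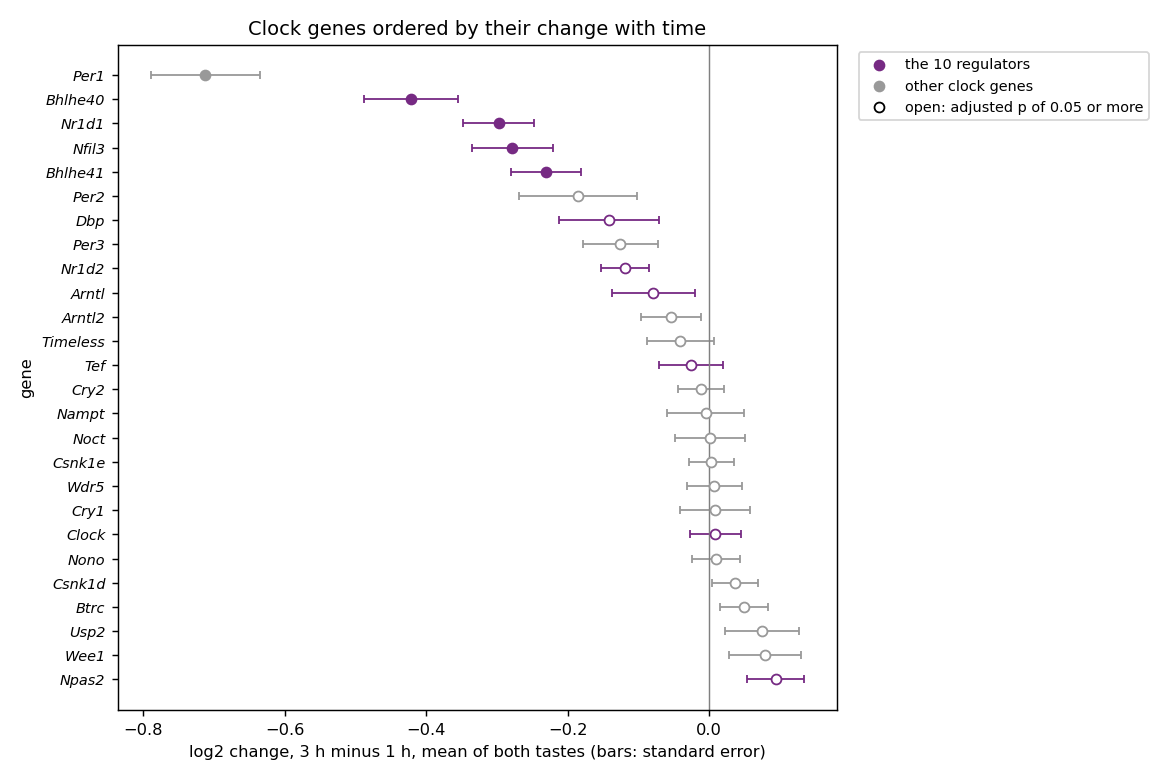
Log2 change between the times averaged over tastes, 3 h minus 1 h (horizontal axis, bars are standard errors), of the 10 regulators (purple) and 16 other clock genes (grey), in order of change. Filled points passed the adjusted test and are Per1 at -0.71, Bhlhe40 at -0.42, Nr1d1 at -0.30, Nfil3 at -0.28 and Bhlhe41 at -0.23.

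Markers of the leptomeninges and of fibroblasts moved with time as well. All 10 of 10, such as Col1a1, were lower at 3 h in either taste, with a median change of -0.35 after saccharin, -0.19 after water and -0.29 averaged over tastes. None was called, and 9 after saccharin, 3 after water and 7 averaged over tastes had an unadjusted p under 0.05 in limma. Their mean log2 level ranged from 6.01 to 6.64 in the saccharin 3 h rats, against 6.59 to 6.86 in the saccharin 1 h rats, and from 6.24 to 6.61 at 3 h, against 6.50 to 6.81 at 1 h after water. With this mean as a covariate Bhlhe40 fell by 0.54 (adjusted p = 0.00306), Nr1d1 by 0.36 and Bhlhe41 by 0.32 (adjusted p = 0.0132 for each), averaged over tastes. Nfil3 did not pass with the covariate, at -0.23 averaged over tastes (adjusted p = 0.338) and -0.34 after saccharin (adjusted p = 0.472). The change of Arntl after saccharin, which was not called, was 0.03 with the covariate and -0.13 without it. The covariate had 1 slope for all groups. Deviations of the marker mean and of Bhlhe40 from their group means correlated at r = -0.79 among the 3 h rats and 0.057 among the 1 h rats. Whether 1 slope served both times was not tested.

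Markers of striatum, which lies beside the insular cortex, had mean levels of 6.14 to 6.28 in the saccharin 3 h rats, against 6.03 to 6.18 in the saccharin 1 h rats, and of 6.17 to 6.23 at 3 h, against 5.98 to 6.14 at 1 h after water. Of the 5 measured, Drd2 had the smallest p, with an averaged change of 0.31 (adjusted p = 0.0539). Whether a different share of striatum took part in any result was not tested. Of markers of excitatory and inhibitory neurons, astrocytes, oligodendrocytes, microglia, endothelium and the suprachiasmatic nucleus (the master clock, whose marker Vip is also made by cortical interneurons), and of 9 reference genes, 0 were called between the times. Their median averaged changes were 0.03, 0.01, -0.01, 0.01, 0.02, 0.09 and -0.03 for the cell types in that order, and -0.02 for the reference genes. At an unadjusted p under 0.05 these lists held 1, 0, 1, 0, 1, 2, 0 and 1 genes.

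The genes most like each of the 4 that fell, by Pearson's r over the 16 arrays against 15208 other probe sets, are a description, since the arrays share the difference by time. For Bhlhe40 they were Stk40 (r = 0.93), Per1 (0.92) and Chrm4 (0.91), and within groups, that is over deviations from group means, their r was 0.76, 0.68 and 0.65. For Nr1d1 they were Bhlhe41 (0.91), Zfp36l2 (0.90) and Npr2 (0.89), with 0.75, 0.66 and 0.76 within groups. Bhlhe41 had Nr1d1 (0.91), Nr1d2 (0.88) and Dstn (0.88), with 0.75, 0.71 and 0.70 within groups. By r over the 16 arrays the nearest 2 genes to Bhlhe41 were thus the REV-ERB receptors. Within groups they were not the nearest: 34 probe sets had a higher r with Bhlhe41 than Nr1d1 did, and 68 a higher r than Nr1d2. Nfil3 had Ctsl (0.89), Ccdc117 (0.88) and Hs3st5 (0.86), with 0.70, 0.69 and 0.60 within groups, and no clock gene among them.

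Deviations of the rats from their group means were correlated over the 16 rats for all 45 pairs, with p from 100000 permutations of rats within groups and Benjamini-Hochberg adjustment over the pairs. Arntl ran against Dbp, with Pearson's r = -0.77 (permutation p = 0.00185, adjusted 0.0416) and Spearman's rho = -0.79 (permutation p = 0.00213, adjusted 0.0958). Without the 2 rats farthest from the median of Arntl r was -0.74, and it was -0.83 among the 3 h rats and -0.55 among the 1 h rats. Bhlhe40 and Bhlhe41 ran together, with r = 0.72 (permutation p = 0.00184, adjusted 0.0416) and rho = 0.65 (permutation p = 0.0106, adjusted 0.159). For this pair r was 0.67 without the 2 farthest rats, 0.89 among the 3 h rats and 0.69 among the 1 h rats. By r 2 of the 45 pairs passed an adjusted p of 0.05 and by rho none did.

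The leptomeningeal marker mean moved with these deviations in the 3 h rats. Among the 8 rats at 3 h its deviation correlated with that of Arntl at r = 0.95, of Dbp at -0.80, of Bhlhe40 at -0.79 and of Bhlhe41 at -0.88. Among the 8 rats at 1 h the values were -0.30, 0.38, 0.057 and -0.49 for the same genes. Over all 16 rats Arntl had r = 0.60 (permutation p = 0.0474, adjusted 0.237) and rho = 0.59 (permutation p = 0.0468, adjusted 0.350), and Bhlhe41 had r = -0.61 (permutation p = 0.0173, adjusted 0.173) and rho = -0.50 (permutation p = 0.0701, adjusted 0.350). Over the same 16 rats Dbp had r = -0.51 (permutation p = 0.165, adjusted 0.315) and Bhlhe40 had r = -0.52 (permutation p = 0.0855, adjusted 0.285). Without the 2 rats farthest from the median of the marker mean r was 0.32 for Arntl and -0.47 for Bhlhe41. Without the same 2 rats r was 0.018 for Dbp and -0.29 for Bhlhe40. None of the 10 genes passed the adjustment over these 10 relations. With the marker mean taken out of both genes by regression, r was -0.67 for Arntl and Dbp and 0.59 for Bhlhe40 and Bhlhe41, values given with no test. The regression used 1 slope per gene over all 16 rats, whereas the relations above differed between 3 h and 1 h. It cannot fully take out a relation seen at 1 time only, so whether these pairs depend on the marker mean was not tested.

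Dbp and Bhlhe40 had r = 0.71 (permutation p = 0.00581, adjusted 0.0872) and rho = 0.71 (permutation p = 0.00864, adjusted 0.159), which did not pass. Nr1d1 and Bhlhe41 had r = 0.75 (permutation p = 0.0149, adjusted 0.126) but rho = 0.43 (permutation p = 0.147, adjusted 0.319). Without the 2 rats farthest from the median of Nr1d1, C374 and C375, r was 0.49. Both are 1 h rats, and r was 0.64 among the 3 h rats and 0.79 among the 1 h rats. Of the activators, Arntl and Clock had r = 0.60 (permutation p = 0.0340, adjusted 0.139) and rho = 0.58 (permutation p = 0.0511, adjusted 0.249).

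**Figure D5:**
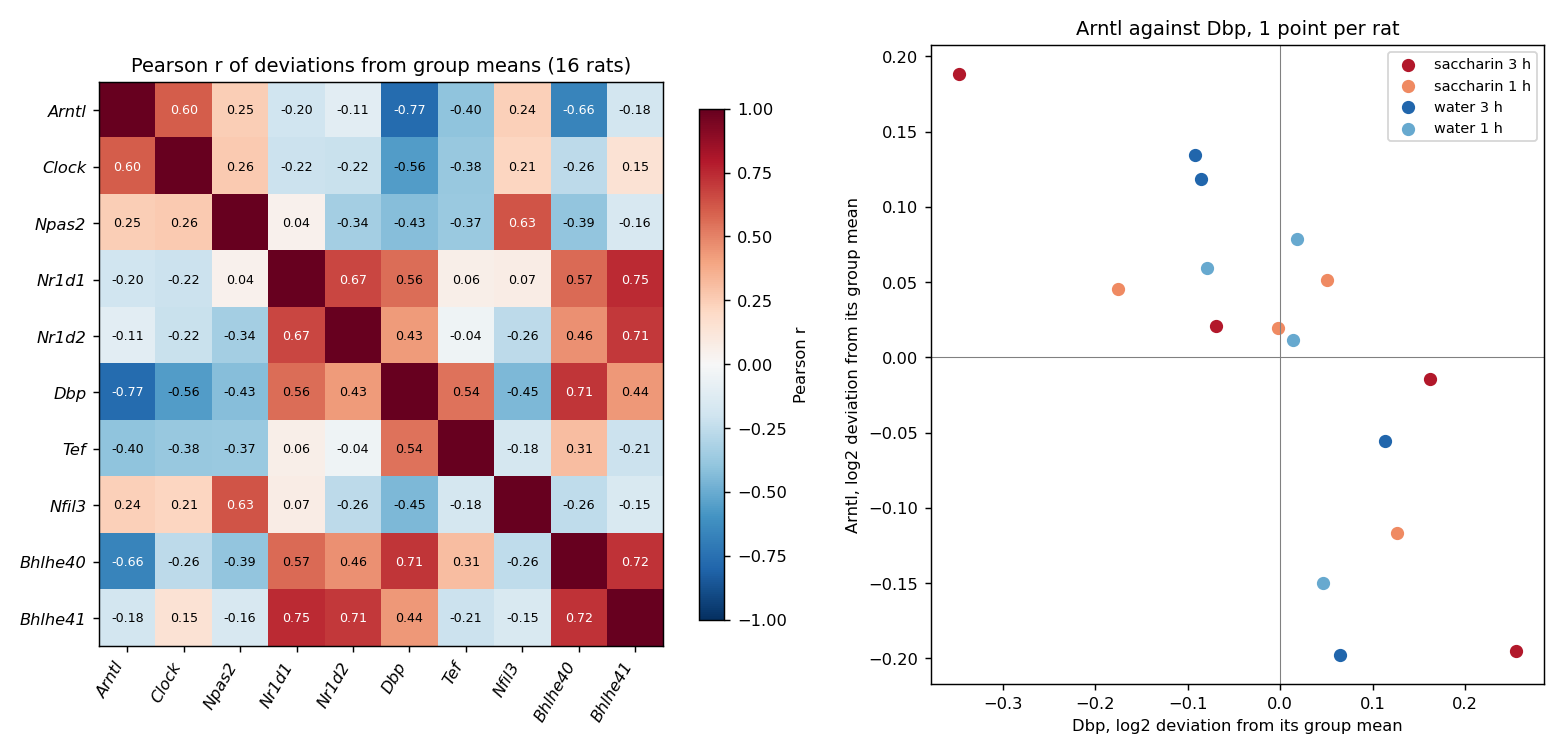
Left, Pearson's r (colour and number) between the deviations of 2 genes from their group means over 16 rats, for all pairs of the 10 genes. Right, the deviation of Arntl (vertical axis, log2) against that of Dbp (horizontal axis, log2) with 1 point per rat coloured by group, for which r was -0.77.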

How the data were processed

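The authors made the deposited log2 values from the scanned arrays in affy (its version is not known here), by quantile normalization across chips and robust multi-chip averaging (RMA), and no further normalization was applied. The platform annotation gives 1 gene for 15209 of 28826 probe sets, which were tested, several for 306 and none for 13311. Sequences were taken from RefSeq (GRCr8). Replicates are separate rats.

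In R 4.3.3, limma 3.58.1 estimated the 4 group means and a shared spread from all 16 arrays, with empirical Bayes moderation. The contrasts were 3 h minus 1 h after saccharin, after water and averaged over tastes, saccharin minus water at each time, and the interaction. The scripts were tested on simulated data. Precision is limited by the number of arrays, 4 per group. Separately, an exact permutation test of 4 rats against 4 cannot give p below 0.0286, and no call rests on such a test.

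The genes and lists were chosen with earlier results of these data known. Named are the 10 genes, other clock genes that passed or had the smallest p averaged over tastes, the 3 genes most like each of the called ones, and markers. Cry1 and Cry2, Thra and Cipc lie outside this rule and were chosen after their values were seen. Alternatives covered the probe sets tested, dim probe sets, centring, repeated quantile normalization, the prior, array weights, fits on 8 arrays, the leptomeningeal marker mean as a covariate, the cut-off of the study (fold change of 1.25 or more with unadjusted p up to 0.05), and leaving out each array. Taking the leptomeningeal marker mean out of the correlations between genes was added after seeing the data.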

Additional observations from a re-analysis of the deposited data

Results flagged for a closer look

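In 3 of the 40 combinations of a gene and a group, 1 of the 4 rats lay far from the others by Dixon's criterion for 4 values, which chance gives in about 1 in 20. Clock stood at 7.619 in water 1 h array C378, against 7.757 in the nearest rat of that group. Npas2 stood at 8.437 in saccharin 3 h array C368, against 8.359 in the nearest. Bhlhe41 stood at 7.621 in saccharin 1 h array C375, against 7.382 in the nearest, and without C375 its averaged change was still called.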

How the results depend on the processing

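Over 26 alternatives, 1505 of 1534 recomputed values of the 10 genes stayed on their side of the threshold (44 uncalled values changed sign), 27 lost a call, 2 gained one and 0 called values turned direction. After saccharin 2 of the 10 genes were called, and 1 among every probe set of the table, 1 with a mean log2 of at least 6 (which drops Nfil3), 1 with the leptomeningeal covariate and 0 to 2 without 1 array. Averaged over tastes 4 were called, 2 among every probe set, 3 with a mean log2 of at least 6 and 3 to 4 without 1 array. At the cut-off of the study 1 was called averaged over tastes (Bhlhe40), and Nr1d1, Nfil3 and Bhlhe41 fell short of its fold change. After water 0 were called, and 1 at that cut-off (Bhlhe40). Over all probe sets 53 were called after saccharin, 31 with the covariate, 114 at the cut-off and 42 to 66 without 1 array. After water 19 were called, 11 among every probe set, 3 in the fit on 8 arrays, 87 at the cut-off and 8 to 28 without 1 array (9 without C367, 8 without C376). Averaged over tastes 153 were called, 34 with the covariate, 73 at the cut-off and 93 to 168 without 1 array (93 without C376). For taste at 3 h 0 were called, 21 at the cut-off and 0 to 2 without 1 array (1 without C365, 2 without C379). At the cut-off 13 passed for taste at 1 h and 57 for the interaction, where 0 were called. The cause of these differences was not tested. No paired analysis was possible because the groups share no replicate numbers.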

Other observations

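Within groups, 36 of the 15208 other probe sets had a lower correlation with Arntl than Dbp did. Cipc, which encodes an inhibitor of CLOCK and was picked for its value, had r = 0.88 with Dbp within groups, the second highest of all 15208 probe sets. Both are descriptions over 16 rats, with no test.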
